A study of Mus musculus with 51 samples.

Results

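Olfr376 and Olfr502 are a pair of mouse odorant receptor (OR) genes that were selected on these data because both were higher after exposure to 2,5-dimethylpyrazine (2,5-DMP) and after exposure to 2-sec-butyl-4,5-dihydrothiazole (SBT). They are 2 of the 1117 OR genes in the deposited tables, and each was found by its gene symbol in every table used. Because the values after 2,5-DMP and SBT chose both genes, and no SBT dose was given in the choice, those values at all 3 SBT doses are described here without a test. The choice does not name the other 6 comparisons, and these were tested. Whether their odor mice also bore on the choice is not known, so a lack of calls there may follow from the choice. For (E)-β-farnesene and 100 μM MTMT the control mice are those of the 2,5-DMP contrast that chose the genes. Those 4 of the 12 tests therefore share their control mice with the choice.

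Levels were read by pS6-IP-Seq from the whole olfactory mucosa. C57BL/6J wild-type mice of mixed sex, about 3 weeks old and matched by litter, were exposed for 1 hr to 10 μL of an odorant or of diluent. The 51 libraries fall into 10 odor groups and 7 control groups of 3 each. The odor groups were 0.01%, 1% and 100% SBT, 1% 2,5-DMP, 100% (E)-β-farnesene, 100 μM and 10 mM (methylthio)methanethiol (MTMT), 100 mM cyclopentadecanone (CPD), 77% 3,4-dehydro-exo-brevicomin (DHB) and 1% β-caryophyllene. The controls had diluent alone, which the methods give as ethanol for MTMT and CPD and as water for the rest. 1% and 100% SBT share 1 control group, and 2,5-DMP, (E)-β-farnesene and 100 μM MTMT share another, whose diluent the labels do not name. As the methods give MTMT another diluent than 2,5-DMP, a control with a single diluent matches only part of these odorants. Where it does not match, odor and diluent cannot be told apart. The tables hold reads of OR genes alone, between 27301 and 160001 a library (median 93870), so that every level below is a share of OR reads. No marker of the sensory neurons or of any other cell of the mucosa can be read from them.

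Each olfactory sensory neuron expresses a single OR gene and sends its axon with those of the other neurons of that receptor to the same glomeruli of the olfactory bulb. Odorant binding opens cyclic nucleotide-gated channels through a G protein, and active neurons phosphorylate ribosomal protein S6. Immunoprecipitation of phosphorylated S6 therefore enriches the transcripts of active neurons, among them the transcript of the receptor they chose. SBT is a volatile of mature male mouse urine, and 2,5-DMP is a urinary volatile of female mice. In whole tissue, more active neurons of a receptor and more captured transcript per neuron cannot be told apart.

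Olfr376 (ENSMUSG00000063881) lies on chromosome 11 at chr11:73371246-73377836 on the plus strand of GRCm38, and its main coding part lies in the last exon at chr11:73374751-73375701. Olfr502 (ENSMUSG00000058014) lies on chromosome 7 at chr7:108520825-108525065 on the minus strand, with its coding sequence at chr7:108523007-108523948. The proteins translated from these coding sequences have 317 and 314 residues and were identical at 45.0% of aligned positions. The median identity of all 1108 translated ORs was 41.9% to Olfr376 and 41.5% to Olfr502. Olfr502 was the 222nd most identical OR to Olfr376, and Olfr376 the 309th most identical to Olfr502. The closest relatives in the table were Olfr20, with 91.2% identity to Olfr376, and Olfr478, with 86.3% identity to Olfr502. The 30 codons below are those in which the members shared most residues, among windows without alignment gaps. These codons were picked for likeness and do not show the distance over the whole proteins. They are given 5′ to 3′ from the GRCm38 genome, with capitals in Olfr376 and Olfr502 at the 33 of 90 bases that differ between them. In Olfr20 capitals mark the 1 base that differs from Olfr376, and in Olfr478 the 7 bases that differ from Olfr502.
Olfr376, chr11:73375432-73375521, plus strand: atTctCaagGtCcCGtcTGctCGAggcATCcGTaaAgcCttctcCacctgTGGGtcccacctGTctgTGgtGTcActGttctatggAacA
Olfr20, chr11:73354427-73354516, plus strand: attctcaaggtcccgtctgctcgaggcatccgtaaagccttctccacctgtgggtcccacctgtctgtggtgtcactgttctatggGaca
Olfr502, chr7:108523178-108523267, minus strand: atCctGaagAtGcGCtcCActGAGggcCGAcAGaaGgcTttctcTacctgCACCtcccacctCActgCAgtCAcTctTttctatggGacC
Olfr478, chr7:108031571-108031660, minus strand: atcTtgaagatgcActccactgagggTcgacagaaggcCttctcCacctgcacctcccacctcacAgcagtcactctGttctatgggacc
In this stretch the members shared 20 of 30 residues, Olfr376 and Olfr20 shared 30, and Olfr502 and Olfr478 shared 29.

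Reads of 50 or 75 bases can tell these genes apart over most of their length. Of the 3341 distinct 50-base stretches in Olfr376 transcripts, 7.63% also occurred in a transcript of another gene, and 5.24% occurred in Olfr20. Of the 3233 stretches in Olfr502 transcripts, 1.64% occurred elsewhere and 0 in Olfr478. The members shared 0 stretches with each other.

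In control mice Olfr376 was the more abundant receptor. Per kilobase of exon and 100000 OR reads, its median over the 21 control mice was 51.5 reads (range 32.5 to 100.0), against 12.1 reads for Olfr502 (range 6.33 to 22.2), and it was higher in 21 of 21 mice. The median over all 1117 ORs on this per-length scale was 13.5 reads, which placed Olfr376 at rank 135 and Olfr502 at rank 592. As a share of OR reads, Olfr376 ranged from 0.108% to 0.334% in control mice (median 0.172%) and Olfr502 from 0.0208% to 0.0730% (median 0.0398%). The control group means differed by up to 1.85-fold for Olfr376 and 1.58-fold for Olfr502, so each odor group is set beside its own controls. Olfr502 was counted by 8 to 73 reads a control library, and Olfr376 by 47 to 277.

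After 1% 2,5-DMP both receptors took about 4 times their control share. Olfr376 held 0.237%, 0.203% and 0.161% of OR reads in the 3 control mice and 1.11%, 0.889% and 0.416% in the 3 odor mice. Olfr502 held 0.0208%, 0.0312% and 0.0494% in the same control mice and 0.201%, 0.129% and 0.107% in the odor mice. For both receptors every odor mouse stood above every control mouse, as for 6.26% of the ORs tested, and for both the lowest odor mouse was replicate 3. The edgeR log2 fold change was 1.98 ± 0.32 (SE, n = 3 against 3) for Olfr376 and 2.04 ± 0.32 for Olfr502. Both were among the 9 ORs called higher (0.841% of the 1070 tested, at an adjusted p below 0.05), in which Olfr502 ranked 2 and Olfr376 ranked 3 by fold change. This is the contrast that chose them, so the call is a description. At the edge of the call, Olfr491 was just inside with a log2 fold change of 1.24, and Olfr478 just outside with 1.42.

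After 100% SBT both receptors were again higher in every odor mouse than in every control mouse, as were 13.3% of the ORs tested. Olfr376 held 0.236%, 0.334% and 0.172% in the 3 control mice and 1.31%, 0.925% and 1.07% in the odor mice, a log2 fold change of 2.54 ± 0.31 (SE, n = 3 against 3). Olfr502 held 0.0727%, 0.0437% and 0.0293% in the controls and 0.120%, 0.185% and 0.174% in the odor mice, a log2 fold change of 2.06 ± 0.42. All 3 odor mice stood above every control mouse of the series for both genes. At this dose 112 of 1050 ORs (10.7%) were called higher, and the members held the 41st and 63rd largest fold changes of the 112. At the edge of the call stood Olfr930, just inside with a log2 fold change of 2.00, and Olfr1085, just outside with 2.34. When library totals alone set the scale, without TMM factors, the median OR moved from -0.07 to -0.47 and the members' values to 2.14 and 1.69, both still called.

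At 1% SBT, against the same 3 control mice, the receptors parted. Olfr376 held 0.671%, 1.10% and 0.766%, above all its control mice (as were 3.74% of the ORs tested), with a log2 fold change of 1.87 ± 0.39 (SE, n = 3 against 3). Olfr502 held 0.0410%, 0.0331% and 0.0188%, within or below its control values, with a log2 fold change of -0.53 ± 0.63. Olfr376 was the ninth by fold change of the 9 ORs called higher (0.863% of 1043), and it shared with Olfr1085 the adjusted p nearest the threshold. It was not called in any of the 6 fits that left out 1 library, nor with library totals, although its log2 fold change stayed between 1.69 and 2.15 without any 1 library. Just outside the threshold stood Olfr1352, with a log2 fold change of 2.31. The 17, 22 and 12 reads of Olfr502 limit what can be said of a change at this dose.

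At 0.01% SBT neither receptor was called. Olfr376 held 0.158%, 0.172% and 0.147% in the 3 control mice and 0.219%, 0.202% and 0.203% in the odor mice, which all stood above the controls (as for 3.08% of the ORs tested) but differed by only 0.41 ± 0.26 on the log2 scale (SE, n = 3 against 3). Olfr502 held 0.0532%, 0.0308% and 0.0730% in the controls and 0.0419%, 0.0411% and 0.0220% in the odor mice, a difference of -0.55 ± 0.38 with overlapping groups. 5 of 1072 ORs (0.466%) were called higher, with Olfr196 just inside the threshold and Olfr1353 just outside. Over the 3 doses Olfr376 therefore stood at 0.208% ± 0.00985, 0.844% ± 0.223 and 1.10% ± 0.193 of OR reads (SD, n = 3 each), and Olfr502 at 0.0350% ± 0.0113, 0.0310% ± 0.0113 and 0.159% ± 0.0346. The lowest dose comes from a separate experiment with its own controls.

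**Figure D1:**
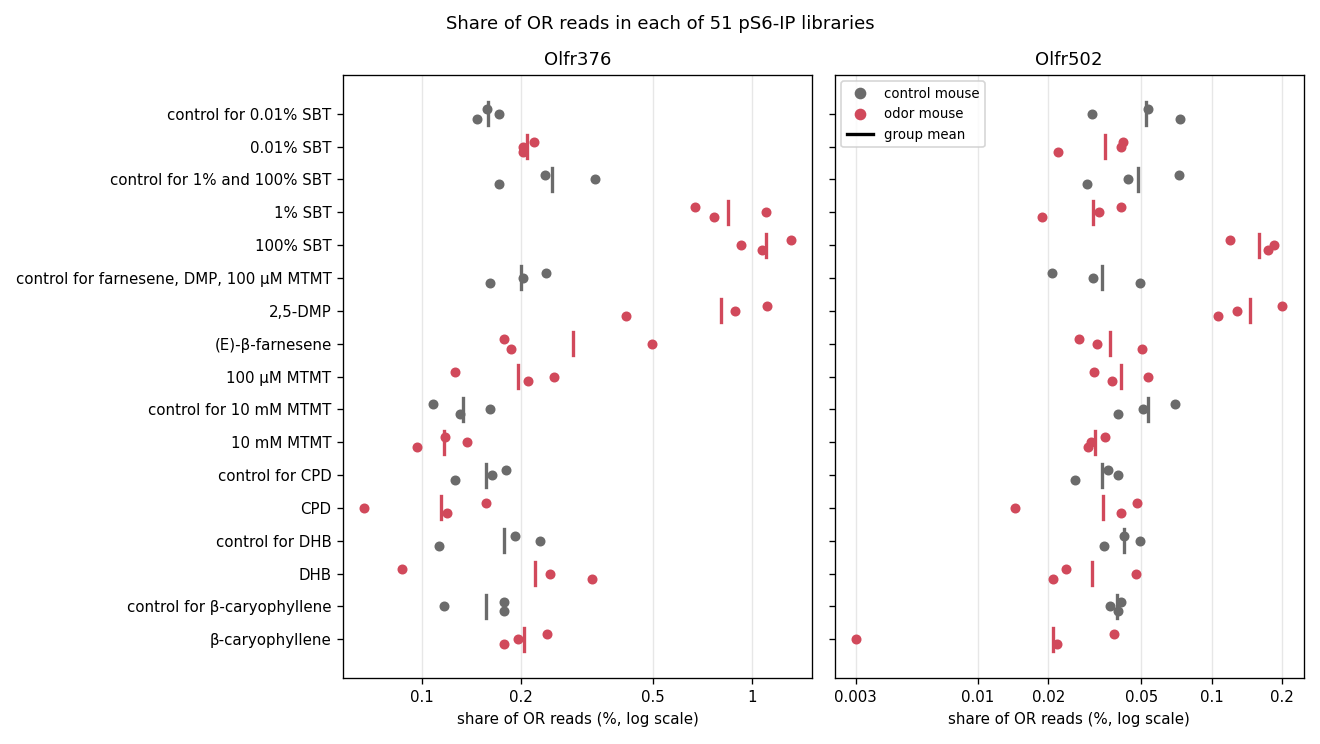
Share of OR reads in percent on a log axis for Olfr376 (left) and Olfr502 (right) in each of 51 libraries, with control mice in grey, odor mice in red and a bar at each group mean (n = 3). Every mouse after 1% SBT, 100% SBT and 2,5-DMP lies above all control mice for Olfr376 (0.416% to 1.31%), as does 1 (E)-β-farnesene mouse (0.496%). For Olfr502 the mice after 100% SBT and 2,5-DMP (0.107% to 0.201%) lie above all others.

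The labels of the 1% and 100% SBT experiment carry 2 prefixes, SerC and SerD, whose meaning is not stated. Within SerC, with 2 odor and 2 control mice, the difference in mean log2 share (pseudocount of 5 per 100000 OR reads) at 100% SBT was 1.95 for Olfr376 and 1.32 for Olfr502, and within SerD, with 1 mouse each, it was 2.61 and 2.38. At 1% SBT Olfr376 differed by 1.59 and 2.12 in the SerC and SerD mice, and Olfr502 by -0.55 and -0.53. The direction was the same within each prefix. Where every odor mouse stood above every control mouse, as for Olfr376 at both doses and Olfr502 at 100% SBT, any split of the mice gives this.

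The ratio of the members within a library sets aside the depth and the composition of that library. In the 21 control mice there were 1.56 to 11.4 Olfr376 reads for each Olfr502 read (median 4.33). After 2,5-DMP the ratio was 3.90, 5.49 and 6.89, and after 100% SBT 5.01, 6.18 and 10.9, all within the range of the 21 control mice. In their own controls it was 3.26, 6.51 and 11.4 for 2,5-DMP and 3.25, 5.88 and 7.64 for 100% SBT. The value of 10.9 thus stood above its own controls. After 1% SBT the ratio was 16.4, 33.0 and 40.7, above every control mouse. Single mice after (E)-β-farnesene (15.4), DHB (15.6) and β-caryophyllene (65.3) also exceeded the control range. In the β-caryophyllene mouse the ratio rests on 3 reads of Olfr502, a share of 0.00300% with a 95% Wilson interval of 0.00102% to 0.00883%, which covers counting error only.

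**Figure D2:**
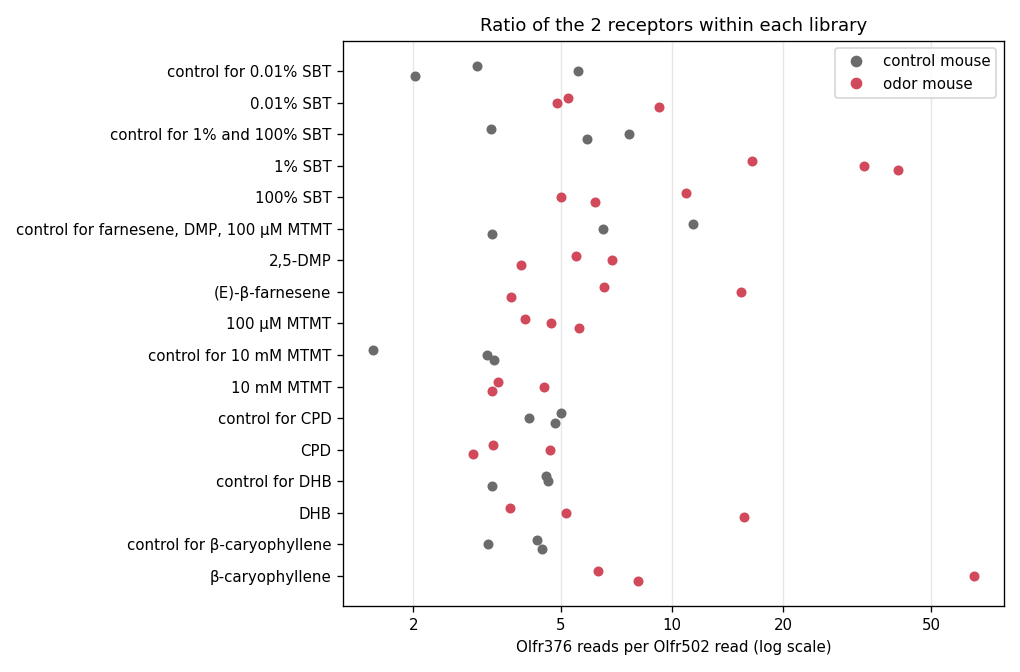
Olfr376 reads per Olfr502 read (log axis) in each of 51 libraries by group, with control mice in grey and odor mice in red. The 3 mice after 1% SBT lie between 16.4 and 40.7, whereas the 21 control mice lie between 1.56 and 11.4.

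Over all 17 groups, the order of the mean shares of Olfr376 ran from 100% SBT (1.10%), 1% SBT (0.844%) and 2,5-DMP (0.804%) to (E)-β-farnesene (0.286%) and then through the controls and the other odors to 10 mM MTMT (0.117%) and CPD (0.114%). Of the 16 gaps between neighbours in that order, 2 exceeded the larger SD of the neighbours, namely 100% against 1% SBT and 2,5-DMP against (E)-β-farnesene. The order for Olfr502 opened with 100% SBT (0.159%) and 2,5-DMP (0.146%), followed by the controls for 10 mM MTMT (0.0535%), and closed with β-caryophyllene (0.0210%). There 1 of 16 gaps exceeded the larger SD, that between 2,5-DMP and the controls for 10 mM MTMT. The 1% SBT group, second in the order for Olfr376, came near the end of that for Olfr502 (0.0310%).

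The comparisons that the choice does not name ask whether either receptor changed after other odorants. In the edgeR quasi-likelihood test, 0 of the 12 tests passed, with adjusted p from 0.922 to 0.994 over all ORs tested and an unadjusted p under 0.05 in 0 of 12. The log2 fold changes ran from -0.85 to 0.55. The groups overlapped in 11 of the 12. Over all ORs tested, the groups did not overlap in either direction in 10.7% after (E)-β-farnesene, 8.61% after 100 μM MTMT, 14.2% after 10 mM MTMT, 7.62% after CPD, 9.87% after DHB and 12.3% after β-caryophyllene. In the two-sided exact permutation test on log2 shares, which cannot give less than 0.1 with 3 mice against 3, the p was 0.1 in 1 of 12 (0.720 after Benjamini-Hochberg adjustment over the 12) and higher in the rest. Same-numbered odor and control mice differed one way in all 3 pairs in 5 of the 12. The same count was not made over all ORs, so it is not read as a trait of the members. Olfr502 was lower in 3 of 3 pairs after 10 mM MTMT, DHB and β-caryophyllene and higher in 3 of 3 after (E)-β-farnesene, and Olfr376 was lower in 3 of 3 after CPD. Permuting within pairs gave p = 0.25 for these 5 by the exact test, the smallest that 3 pairs allow. A p that misses the threshold does not show that the levels were alike, so the 95% interval of each log2 fold change, computed from its SE under a normal distribution, is given.

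After (E)-β-farnesene, a sesquiterpene of male mouse urine, 19 of 1071 ORs (1.77%) were called higher and neither member was among them. Olfr376 held 0.177%, 0.496% and 0.186%, so that replicate 2 stood above all its controls and the others did not. Its log2 fold change was 0.55 (interval -0.09 to 1.19, edgeR adjusted p = 0.992) and became -0.08 without odor replicate 2. Olfr502 held 0.0270%, 0.0323% and 0.0505%, a log2 fold change of 0.13 (-0.57 to 0.83, adjusted p = 0.992). The controls here and in the 100 μM MTMT comparison are the mice that also served 2,5-DMP.

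MTMT is a sulfur compound of male mouse urine, and neither member was called at either dose. At 100 μM 3 of 1068 ORs (0.281%) were called higher. Olfr376 held 0.126%, 0.252% and 0.210% (log2 fold change -0.05, interval -0.57 to 0.47, edgeR adjusted p = 0.984) and Olfr502 0.0315%, 0.0536% and 0.0375% (0.23, interval -0.47 to 0.92, adjusted p = 0.982). At 10 mM edgeR called 0 of 1054 ORs (0%), with 69 at an unadjusted p under 0.05 and 15 called higher by DESeq2. Olfr376 held 0.108%, 0.161% and 0.131% in the controls and 0.118%, 0.137% and 0.0967% in the odor mice. Its log2 fold change of 0.15 (interval -0.40 to 0.70, adjusted p = 0.969) had no settled direction, since with library totals it was -0.19, and the median OR moved from 0.03 to -0.28 with them. Olfr502 held 0.0697%, 0.0509% and 0.0398% in the controls and 0.0351%, 0.0305% and 0.0297% in the odor mice. This was the 1 comparison of the 12 without overlap, with a difference in mean log2 share of -0.64 (exact permutation p = 0.1, the smallest possible) and a log2 fold change of -0.43 (interval -1.12 to 0.26, edgeR adjusted p = 0.969). Within label prefix 3046 (2 mice against 2) the log2 share of Olfr502 differed by -0.78 and that of Olfr376 by -0.05, and within prefix 3134 (1 against 1) by -0.37 and -0.42.

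After CPD, a macrocyclic musk, edgeR called 0 of 1050 ORs (0%), with 40 at an unadjusted p under 0.05 and 1 called higher by DESeq2. The paper names CPD as an agonist of neurons with other ORs, so a count of 0 here does not show that no OR responded. Olfr376 held 0.180%, 0.163% and 0.126% in the controls and 0.157%, 0.0672% and 0.119% in the odor mice, a log2 fold change of -0.36 (interval -0.99 to 0.27, edgeR adjusted p = 0.993). Olfr502 held 0.0359%, 0.0396% and 0.0261% in the controls and 0.0478%, 0.0144% and 0.0410% in the odor mice, a log2 fold change of 0.08 (interval -0.79 to 0.95, adjusted p = 0.993). CPD replicate 2 was the lowest for both receptors. Within prefix 3046 the log2 shares differed by -0.70 and -0.42 for Olfr376 and Olfr502, and within prefix 3134 by -0.08 and 0.57.

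After DHB, a bicyclic volatile of male mouse urine, 6 of 1064 ORs (0.564%) were called higher. Olfr376 held 0.192%, 0.228% and 0.113% in the controls and 0.0871%, 0.244% and 0.328% in the odor mice, so that the odor mice lay both below and above all controls. Its log2 fold change of 0.38 (interval -0.31 to 1.08, edgeR adjusted p = 0.994) was -0.01 without odor replicate 3. Within prefix 4429 (2 mice against 2) its log2 share differed by -0.50 and within prefix 4575 (1 against 1) by 1.50. Olfr502 held 0.0422%, 0.0494% and 0.0346% in the controls and 0.0239%, 0.0473% and 0.0210% in the odor mice, a log2 fold change of -0.36 (interval -1.10 to 0.38, adjusted p = 0.994), with within-prefix differences of -0.38 and -0.61.

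After β-caryophyllene, also a sesquiterpene, edgeR called 0 of 1048 ORs (0%), with 51 at an unadjusted p under 0.05, and DESeq2 also called 0 higher. Olfr376 held 0.177%, 0.117% and 0.177% in the controls and 0.240%, 0.196% and 0.177% in the odor mice, a log2 fold change of 0.47 (interval -0.19 to 1.13, edgeR adjusted p = 0.922). Olfr502 held 0.0409%, 0.0368% and 0.0398% in the controls and 0.0381%, 0.00300% and 0.0218% in the odor mice, a log2 fold change of -0.85 (interval -2.14 to 0.43, adjusted p = 0.922). The interval for Olfr502 was the widest of the 12, and without odor replicate 2 its log2 fold change was -0.33.

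**Figure D3:**
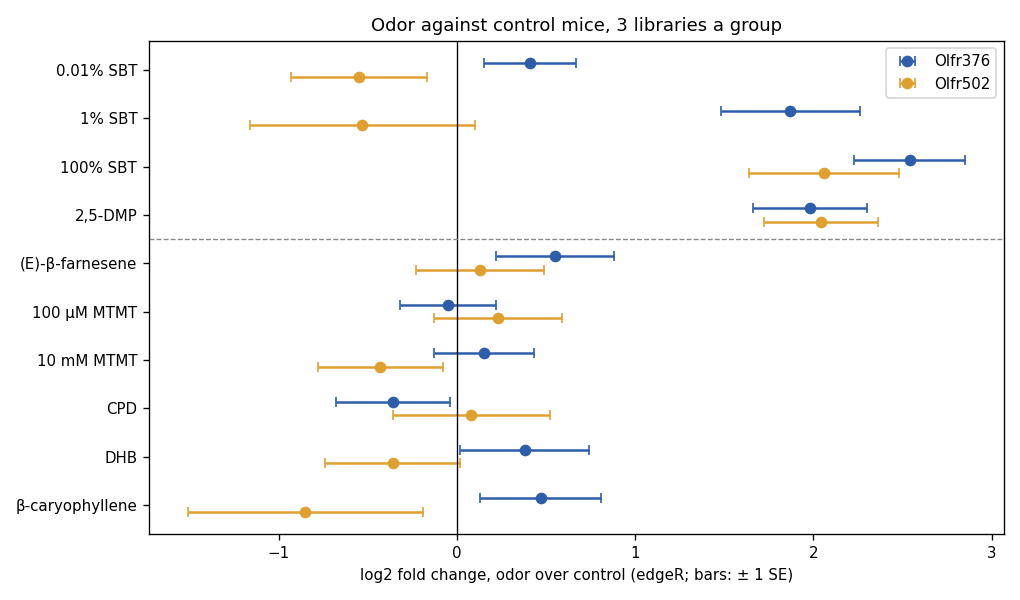
Log2 fold change of odor over control mice with 1 SE (edgeR, 3 libraries a group) for Olfr376 in blue and Olfr502 in yellow. Above the dashed line are the comparisons that chose the genes, where Olfr376 reaches 2.54 and Olfr502 2.06 at 100% SBT, and below it are the 6 others, which lie between -0.85 and 0.55.

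Receptors close in sequence to the members are given next, and their values after SBT and 2,5-DMP are described without a test, as those contrasts chose the members. Olfr20 lies 15.3 kb from Olfr376 on the same strand. After 100% SBT it held 0.689%, 0.687% and 0.346% of OR reads against 0.0295%, 0.0665% and 0.0256% in the control mice, a log2 fold change of 4.16 ± 0.45 (SE, n = 3 against 3), and it was called higher. At 1% SBT it held 0.154%, 0.226% and 0.0408% and was not called (1.86 ± 0.61). After 2,5-DMP it held 0.0511%, 0.0470% and 0.0544% against 0.0576%, 0.0560% and 0.0551% in the controls. That difference was -0.17 ± 0.27, in the mice in which Olfr376 differed by 1.98. Reads that fall in the stretches both genes share were apportioned by the authors' quantification.

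Olfr478, the closest relative of Olfr502, was above its controls after both odorants. After 100% SBT it held 0.121%, 0.0708% and 0.116% against 0.0318%, 0.0472% and 0.0256% in the control mice, a log2 fold change of 1.90 ± 0.43 (SE, n = 3 against 3), and it was called higher. At 1% SBT it held 0.00241%, 0.0437% and 0.0173% (-0.65 ± 0.82). After 2,5-DMP it held 0.154%, 0.107% and 0.0604% against 0.0224%, 0.0464% and 0.0462%, a log2 fold change of 1.42 ± 0.34 with no overlap, and it was not called. Olfr506, 83.4% identical to Olfr502 and 85.7 kb away, held 0.801%, 0.587% and 0.801% after 100% SBT (4.77 ± 0.41, called higher) but 0.0501%, 0.0636% and 0.0631% after 2,5-DMP (0.27 ± 0.28).

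Of the 10 ORs most identical to Olfr376, 4 of 10 tested were called higher after 100% SBT (Olfr20, Olfr23, Olfr389 and Olfr393), or 40.0% against 10.7% of all ORs tested. The median log2 fold change of the 10 was 1.61 against -0.07 over all ORs, or 1.31 with Olfr384 at the bound below. After 2,5-DMP 0 of 9 were called, against 0.841% of all ORs tested, and the median was 0.19 against 0.01. At so low a share a count of 0 is not read as a trait of either list. Of the 10 ORs most identical to Olfr502, 2 of 10 were called higher after 100% SBT (Olfr478 and Olfr506), with a median of 0.42, and 0 of 10 after 2,5-DMP, with a median of -0.25. In the other 8 comparisons 0 of the 8 to 10 tested in each list were called, where 0% to 1.77% of all ORs tested were called higher. Among the others of the 5 most identical to Olfr376, the log2 fold change after 100% SBT and after 2,5-DMP was 1.00 and 0.57 for Olfr378, -0.03 and 0.30 for Olfr391 and 1.32 and 0.54 for Olfr397. Olfr384 was at 0 reads in the 3 control mice and at 2 to 7 reads after 100% SBT, and it was not called. Against a floor of 3 reads over the control group its lower bound was 2.46-fold, which leaves out the spread between mice. Among those of Olfr502 the same values were 0.70 and 0.62 for Olfr469, 2.01 and -0.61 for Olfr490, -0.89 and 1.07 for Olfr493 and -2.51 and -0.65 for Olfr494, all not called.

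The nearest ORs on the chromosome were counted in the same way at 100% SBT. Among the 5 nearest on each side of Olfr376, 3 of 10 were called higher (Olfr1, Olfr20 and Olfr381), and 1 of 8 tested around Olfr502 (Olfr506), against 10.7% of all ORs tested. The median log2 fold change was 1.10 around Olfr376 and -0.44 around Olfr502, against -0.07 over all ORs tested. Only Olfr20 lies near Olfr376 on its lower side, as the next 4 lie 13756 to 14527 kb away, whereas those on its higher side lie within 138 kb. In the other 9 comparisons 0 were called, where 0% to 1.77% of all ORs tested were called higher. Olfr1, 15.2 kb from Olfr376 and 55.8% identical, differed after 100% SBT by 1.20 ± 0.34 (SE, n = 3 against 3) and by -0.01 ± 0.24 after 2,5-DMP. On either side of Olfr502, Olfr498 (53.2 kb) had 7 to 11 reads in the controls and 6 to 22 after 2,5-DMP, and Olfr503 (19.5 kb) had 0 to 2 and 0 to 10 reads. After 100% SBT Olfr498 had 0 to 1 reads against 0 to 12 in the controls (-4.29 ± 1.63, not called). The lists overlap with those of the relatives, by 3 ORs for Olfr376 and 5 for Olfr502.

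4 ORs were called higher both after 2,5-DMP and after at least 1 SBT dose: the 2 members, Olfr1012 and Olfr694. They are 44.4% of the 9 ORs called after 2,5-DMP and 3.48% of the 115 called at any SBT dose. At 100% SBT 10.7% of all ORs tested were called higher. The members were chosen for higher values after both odorants, so this overlap is a description. All 4 were called at 100% SBT, and Olfr376 was the 1 of them called at 1% SBT. Olfr694 held 0.380%, 0.196% and 0.184% after 2,5-DMP against 0.0688%, 0.0809% and 0.0851% in the controls (1.67 ± 0.29, SE, n = 3 against 3). After 100% SBT it held 0.147%, 0.132% and 0.182% against 0.0363%, 0.0367% and 0.0696% (2.12 ± 0.39), and at 1% SBT it held 0.0531%, 0.0588% and 0.0628% (0.45 ± 0.52). Olfr1012 held 0.174%, 0.202% and 0.218% after 2,5-DMP against 0.0656%, 0.0448% and 0.0486% (1.88 ± 0.25). After 1% SBT it held 0.154%, 0.255% and 0.118% and after 100% SBT 0.174%, 0.178% and 0.144%, against 0.0341%, 0.0962% and 0.103% in the shared controls (1.30 ± 0.47 and 1.51 ± 0.41). At 1% SBT the mice stood above all controls for Olfr376 and Olfr1012, and overlapped them for Olfr502 and Olfr694.

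**Figure D4:**
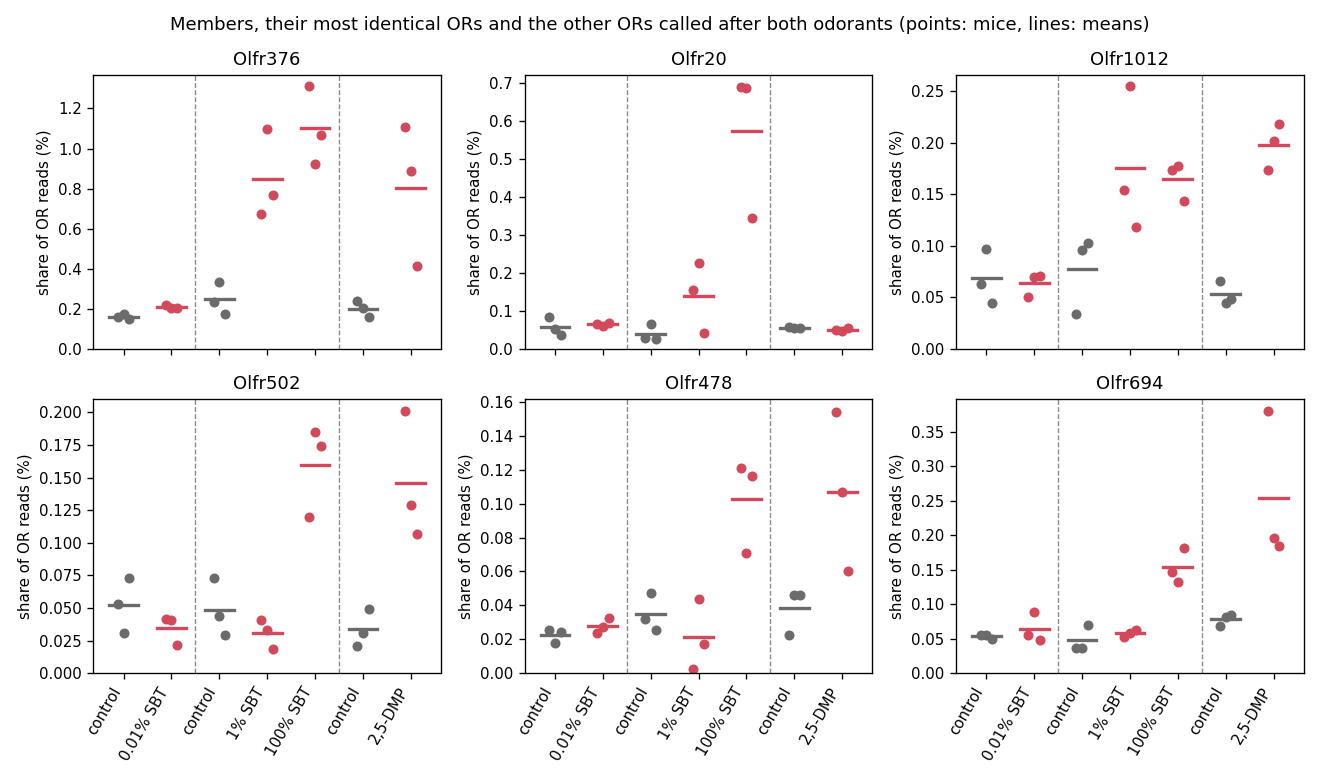
Share of OR reads in percent in each mouse (points) with group means (lines) for the members, their most identical ORs (Olfr20, Olfr478) and the other ORs called after both odorants (Olfr1012, Olfr694), with control mice in grey and odor mice in red. Dashed lines separate the 3 experiments. Olfr20 reaches 0.689% after 100% SBT and stays at 0.0470% to 0.0544% after 2,5-DMP, whereas in the other 5 every mouse is above its controls after both 100% SBT and 2,5-DMP.

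Likeness of pattern over all 51 libraries was Pearson's r of log2 shares, each library taken relative to the control mice of its experiment, across 938 other ORs with a mean of 10 or more reads a library. These points share controls, depth and OR composition, and they include the libraries that chose the members, so r is a description. The 5 ORs most like Olfr376 were Olfr694 (r = 0.71), Olfr1012 (0.68), Olfr20 (0.67), Olfr914 (0.66) and Olfr1085 (0.66). Olfr914 and Olfr1085 were called higher after 1% SBT, where Olfr1085 had 0 reads in 1 control library, with log2 fold changes of 3.84 ± 0.60 and 3.55 ± 0.73 (SE, n = 3 against 3), and differed by 0.86 ± 0.46 and 0.32 ± 0.41 after 2,5-DMP. At 100% SBT Olfr914 was also called higher (2.39 ± 0.64), and Olfr1085 was not called (2.34 ± 0.72). The 5 most like Olfr502 were Olfr173 (r = 0.71), Olfr694 (0.69), Olfr506 (0.65), Olfr393 (0.65) and Olfr533 (0.59). Olfr533 held 1.09% to 1.42% of OR reads after 100% SBT (2.55 ± 0.30) and differed by 0.14 ± 0.25 after 2,5-DMP, and Olfr173 differed by 1.33 ± 0.68 and 1.07 ± 0.35. With each other the members had an r of 0.51, rank 41 for Olfr376 and rank 16 for Olfr502.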

How the data were processed

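The members and all gene lists were chosen with earlier results of these data known. Whole olfactory mucosa was subjected to pS6-IP-Seq. Reads were mapped by the authors to GRCm38 with STAR under the GENCODE annotation, keeping reads at up to 10 loci and deleting 1 overlapping gene model, and RSEM estimated the counts per gene. The deposited values are these expected counts of OR genes, as whole numbers without normalization. The tables also hold the authors' log2 fold change, log2 CPM, likelihood ratio, p-value and FDR per gene, which were not used. The 6 sample columns of a further table, on 2-heptanone, matched no label and were not used.

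Columns were assigned by sample title, and groups and replicate numbers come from the labels. Doses come from the labels and the names of the tables. P-values weigh the difference between odor and control mice against the spread between these mice. Each comparison took 3 odor and 3 control libraries. ORs with 10 or more reads over the 6 libraries were fitted with edgeR 4.0.16 (TMM factors over OR genes, quasi-likelihood test, Benjamini-Hochberg over all ORs tested, threshold 0.05, SE from the F statistic). Calls in the 2,5-DMP and SBT comparisons are a description. The exact permutation test used log2(reads per 100000 OR reads + 5). Fits were tested on simulated data. All 51 pairs of libraries within a group differed by more than sampling noise (chi-square per degree of freedom of 5.22 or more). Intervals on a share are 95% Wilson intervals. PCR reads are not independent molecules, so these cover counting error only. TMM assumes that most ORs do not change, and a change shared by most ORs, or in the OR total against other genes, would not be seen.

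Named ORs are the members, the 5 of highest likeness, the 5 most identical and the nearest on each side of each member, and those called after both 2,5-DMP and SBT. Olfr506 and the ORs called within a list, or beside the threshold, were named after their values were seen. No protein table was used: proteins were translated from GENCODE coding sequences, a choice made after seeing the data, and aligned globally (BLOSUM62). Positions of all 1117 ORs come from GENCODE on GRCm38.

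Replicate numbers are given by the labels, and the methods describe litter-matched mice. Over ORs with 60 or more reads over the 6 libraries, same-numbered odor and control mice deviated together from their group means with every correlation over 0.1 in 8 of 10 comparisons (range over all pairs 0.04 to 0.37), and not in 0.01% SBT and 100 μM MTMT. The numbers were taken to pair the mice in the 8. Alternatives were the replicate block, DESeq2 1.42.0, library totals, no count filter, all 51 libraries in 1 fit, each library left out, a pseudocount of 1 in the permutation test and, chosen after seeing the data, the label prefix as a term and permutation within same-numbered pairs.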

Additional observations from a re-analysis of the deposited data

How the results depend on the processing

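Both members kept their direction and their call after 2,5-DMP and 100% SBT under every alternative, with log2 fold changes without any 1 library of 1.61 to 2.29 and 2.33 to 2.80 for Olfr376 and of 1.68 to 2.39 and 1.83 to 2.49 for Olfr502. Olfr376 after 1% SBT kept its direction (1.69 to 2.15) but was not called without any 1 library or with library totals. The 2,5-DMP and SBT contrasts chose the members, so these calls are a description and no support for the choice. With the replicate number as a block, all 20 member values kept direction and side of the threshold. The pairing moved Olfr502 after β-caryophyllene from -0.85 to -1.17 and Olfr376 after 1% SBT from 1.87 to 1.91. In the 6 comparisons that the choice does not name, 0 of 12 tests passed under any alternative. With library totals Olfr376 after 10 mM MTMT became -0.19 and Olfr502 after CPD became -0.01. Leaving out 1 library turned the sign of some: the log2 fold change ranged from -0.08 to 0.79 for Olfr376 and -0.15 to 0.49 for Olfr502 after (E)-β-farnesene, from -0.29 to 0.20 for Olfr376 and -0.04 to 0.58 for Olfr502 after 100 μM MTMT, from -0.05 to 0.33 for Olfr376 after 10 mM MTMT, from -0.18 to 0.42 for Olfr502 after CPD and from -0.01 to 0.72 for Olfr376 after DHB. The mean log2 share difference ranged from -0.12 to 0.61 for Olfr376 and -0.13 to 0.40 for Olfr502 after (E)-β-farnesene, from -0.27 to 0.21 for Olfr376 after 100 μM MTMT, from -0.36 to 0.36 for Olfr502 after CPD and from -0.21 to 0.71 for Olfr376 after DHB. The cause was not tested. Of the 5 ORs most like each member, 1 for Olfr376 and 2 for Olfr502 remained with 17 uncentred group means, and 3 for Olfr376 with a mean of 30 or more reads a library, where Olfr914 and Olfr1085 were not in the set. The number of ORs called higher was 23 in the fit of all 51 libraries against 9 for 1% SBT, 12 against 19 for (E)-β-farnesene, 0 against 3 for 100 μM MTMT, 27 against 0 for 10 mM MTMT and 1 against 0 for CPD. For 100 μM MTMT it was 5 with DESeq2, library totals or no count filter and 6 with the block, and DESeq2 gave 15 for 10 mM MTMT and 1 for CPD. Without 1 library it ranged from 3 to 5 for 0.01% SBT, 0 to 8 for 1% SBT, 8 to 27 for (E)-β-farnesene, 1 to 5 for 100 μM MTMT, 0 to 37 for 10 mM MTMT and 0 to 1 for CPD. The 8 to 73 reads of Olfr502 in a control library limit what could be detected.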
